A study of Danio rerio with 6 samples.

Results

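The *gadd45* genes of the zebrafish encode small stress-inducible proteins, named for growth arrest and DNA damage, and 5 of them were measured in whole *fogsk8* mutant embryos and their wild-type (WT) siblings at 24 hours post fertilization (hpf). They are *gadd45aa*, *gadd45ab*, *gadd45ba*, *gadd45bb* and *gadd45ga*, and they were found by the gene symbol in the platform's annotation, on 6 of the 15502 probe sets tested. *gadd45ba* is read by 2 probe sets and each of the others by 1. All of the 6 probe sets were fitted, and none was lost to a filter. A further gene of the family, *gadd45gb.1*, was not analysed here.

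Gadd45 proteins have no enzyme activity of their own and act by binding other proteins. In mammals they bind and activate the kinase MTK1 (*map3k4*), which lies upstream of the p38 and JNK kinases, they bind PCNA, p21 and the Cdk1 and cyclin B1 complex, and they have been placed in the excision repair that removes methylated cytosines from DNA. In mammals the genes are induced within a short time of stress by ATF4, FOXO and NF-kappaB factors. In the zebrafish embryo *gadd45b* genes are known from the somites and the paraxial mesoderm. The study saw strong somite signal at an earlier stage, and it reports this signal as largely normal in *fogsk8* embryos. At 24 hpf it reports *gadd45b* in WT pronephric ducts, weakly in the posterior paraxial mesoderm and hardly in other places. In *fogsk8* embryos of that stage it reports a widespread increase of *gadd45b* RNA.

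The mutants were embryos with the *sk8* allele of *foggy*, the gene for the transcription elongation factor Spt5 (*supt5h*), and the controls were their WT siblings, and the sources used here do not say how many of these were heterozygous. The allele is predicted to truncate the protein, but the mutants still hold some Spt5 protein from the mother, so they model a depletion and not a complete loss. Each of the 3 WT and 3 *fogsk8* samples was total RNA pooled from whole embryos, in equal numbers in both groups and without any agent beyond the Pronase K used on some to remove the chorion, on its own Affymetrix Zebrafish Genome Array. Embryos of both groups came from natural spawning, with AB as the wild-type strain.

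The values are the authors' GC-RMA values on the log2 scale, so that a difference of 1 is a 2-fold change. The *supt5h* probe set read 6.80 to 7.56 in WT and 3.66 to 3.81 in *fogsk8* embryos. The 10th percentile of the arrays, near the floor of the values, lay at 2.28 to 2.35. Replicate 3 stood somewhat apart in both groups, with a correlation of 0.991 to 0.992 to the other arrays of its group, against 0.996 to 0.997 between replicates 1 and 2. With 3 arrays a group, the precision of each value is limited by that number. Probe sets differ in how strongly they bind their transcript, so the level of a probe set is not compared with that of another, only its change.

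The gene that the study calls *gadd45b* was tied to the arrays through its primers, which it lists with the S1_a_at probe set of the gene. The suffix a marks a probe set that matches several transcripts of a gene. The platform annotation gives this probe set to *gadd45ba*, and RefSeq lists *gadd45b* among the synonyms of that gene. These primers are shown because that listing is what ties the study's qRT-PCR and ChIP of *gadd45b* to a probe set here. Their place in the genome was not looked up, for want of a genome here. Each is 24 bases long, written 5′ to 3′ in lower case, with no part marked:
5′ end, ChIP forward: cgagcaaaggaatactgcaactcc
5′ end, ChIP reverse: atccaacgacttcttccagggtca
3′ end, ChIP and qRT-PCR forward: tagcggaggaacaagttgtgggaa
3′ end, ChIP and qRT-PCR reverse: atgttcgtcccgcattcagcgata
The pair used for qRT-PCR is the same, base for base, as the pair used for the 3′ end of the gene in chromatin immunoprecipitation (ChIP). Each of the 4 primers has a GC content of 50%.

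Of the 5 *gadd45* genes, 3 rose in *fogsk8* embryos and none fell. A probe set was taken as changed at an adjusted p (limma, Benjamini-Hochberg over all 15502 probe sets) under 0.05 and at least 2-fold. *gadd45ba* rose most, 5.69-fold and 6.34-fold on its 2 probe sets. *gadd45ga* rose 3.36-fold and *gadd45bb* 2.75-fold. *gadd45ab* and *gadd45aa* stood at 1.47-fold and 1.83-fold and were not past the threshold. By probe set, 4 of 6 rose, where 0.748% of all probe sets rose and 2.87% fell. By the methods' t-test at 2-fold, 4 of 6 were also higher, among 0.832% of all probe sets at an unadjusted p under 0.05 and 0.413% after Benjamini-Hochberg adjustment. The study chose *gadd45b* for follow-up from the results of these same arrays, so its part in these counts is not independent evidence. Outside the arrays, the study also reported more *gadd45b* RNA by qRT-PCR and in situ hybridization, and more of its protein by Western blot. By ChIP in WT embryos it reported high Spt5 occupancy at the start of *gadd45b* and little at its far end. In *fogsk8* embryos it reported more RNA polymerase II at the far end than in WT, and a similar level at the start. The arrays read RNA levels only, so occupancy was not tested here.

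On all 6 probe sets every *fogsk8* array read above every WT array. Such a separation was seen for 23.3% of all probe sets, and 66.0% of all probe sets had a change above 0, with a median change of 0.055 on the log2 scale. The median change of the 5 *gadd45* genes was 1.46 on the same scale, against 0.057 over all 8793 genes.

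**Figure D1:**
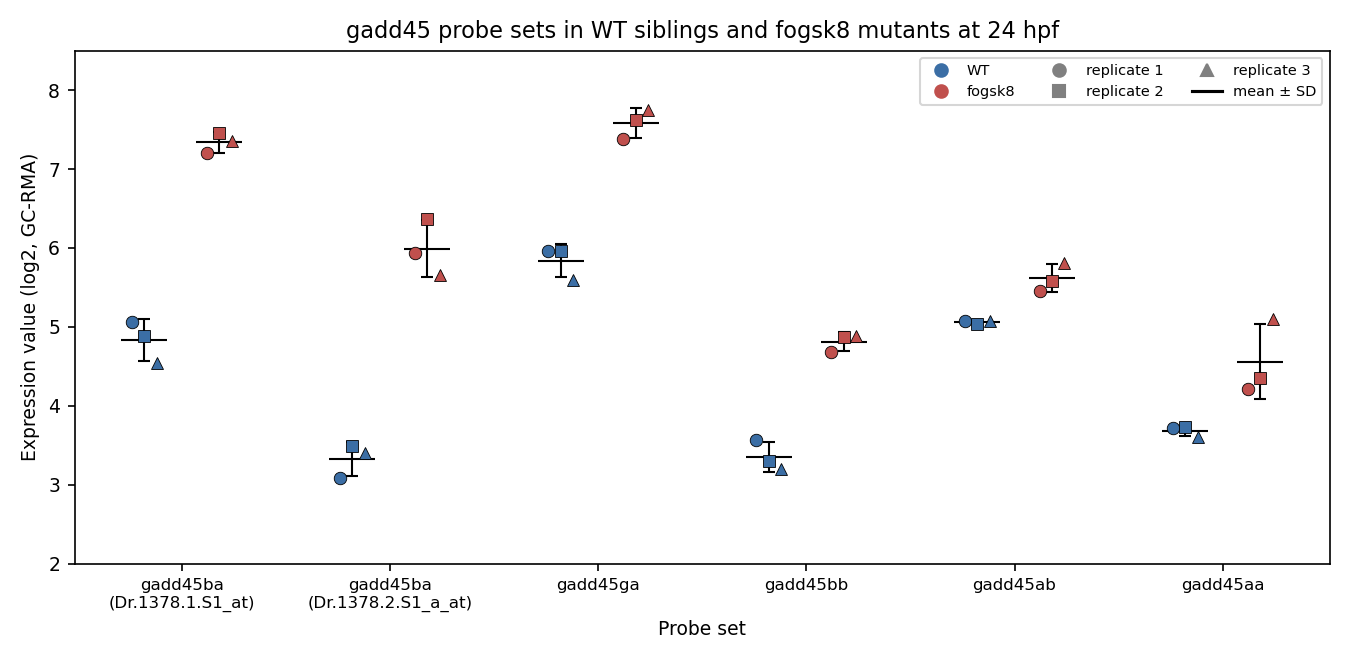
The log2 GC-RMA value (y axis) of the 6 *gadd45* probe sets (x axis) is plotted for the 3 WT arrays (blue) and the 3 *fogsk8* arrays (red), with a marker shape for each replicate number and the mean ± SD as a bar. The red points lie above the blue points at every probe set, with the widest gaps at *gadd45ba* and the largest spread at *gadd45aa*, where *fogsk8* replicate 3 read 5.10.

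*gadd45ba* is a *gadd45b* gene, whose mammalian counterpart restrains or promotes JNK signalling depending on the cell. On its S1_at probe set it read 5.07, 4.89 and 4.54 in WT replicates 1 to 3, and 7.20, 7.46 and 7.36 in *fogsk8* replicates 1 to 3. The lowest mutant array stood 2.13 above the highest WT array, and the WT arrays spanned 0.52. Its log2 fold change was 2.51 (SE 0.15, 95% interval 2.14 to 2.88, adjusted p = 0.00117 by limma).

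The S1_a_at probe set of *gadd45ba* is the 1 that the study's primers were listed with. It read 3.08, 3.50 and 3.40 in WT and 5.94, 6.37 and 5.66 in *fogsk8* embryos. Again the groups lay far apart, by a gap of 2.16, but the mutant arrays spread more, over 0.71. The log2 fold change was 2.66 (SE 0.21, 95% interval 2.15 to 3.18, adjusted p = 0.00216). The WT values here were little above the floor, so this fold is less certain, and whether it understates the change was not tested. Array by array, this probe set minus the other was −1.99 to −1.14 in WT and −1.70 to −1.09 in *fogsk8* embryos. The changes on the 2 probe sets differed by 0.16 on the log2 scale, less than the spread of that difference between arrays. Among all probe sets, the changes of *gadd45ba* ranked 4th and 5th from the top.

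*gadd45bb*, the paralog of *gadd45ba*, rose by less. Its probe set read 3.57, 3.30 and 3.20 in WT and 4.68, 4.88 and 4.88 in *fogsk8* embryos. The mutant arrays agreed within 0.20 and lay 1.11 above the highest WT array. The log2 fold change was 1.46 (SE 0.12, 95% interval 1.17 to 1.75, adjusted p = 0.00236), which ranked 47th from the top. The WT values were again not far above the floor.

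*gadd45ga* belongs to the *gadd45g* group, whose mammalian counterpart is a cytokine-induced activator of MTK1 and of p38. It read 5.96, 5.96 and 5.60 in WT and 7.38, 7.63 and 7.75 in *fogsk8* embryos. The groups were 1.42 apart, and both spread over about the same range, 0.37 in WT and 0.36 in the mutants. The log2 fold change was 1.75 (SE 0.14, 95% interval 1.39 to 2.10, adjusted p = 0.00245), the 20th from the top.

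The *gadd45a* genes, whose mammalian counterpart is induced by DNA damage, did not pass the threshold. *gadd45ab* read 5.08, 5.04 and 5.07 in WT and 5.46, 5.58 and 5.81 in *fogsk8* embryos. The WT arrays were within 0.037 of each other, and all mutant arrays lay above them. Its log2 fold change of 0.55 (SE 0.097, 95% interval 0.31 to 0.79, adjusted p = 0.0184) was under the 2-fold minimum, and the upper end of the interval was a 1.73-fold change. At an adjusted p under 0.05 and any fold, 5 of the 6 *gadd45* probe sets were higher, where 8.88% of all probe sets were higher and 7.99% lower. Its adjusted p was 0.0588, 0.0617 and 0.0543 without WT replicate 1, WT replicate 2 and *fogsk8* replicate 2.

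*gadd45aa* read 3.71, 3.73 and 3.61 in WT and 4.22, 4.35 and 5.10 in *fogsk8* embryos. The third mutant array stood 0.75 above the second, while the other mutant arrays differed by 0.14. The log2 fold change was 0.88 (SE 0.24, 95% interval 0.29 to 1.46, adjusted p = 0.0584), the widest interval of the family. The interval runs from a 1.22-fold to a 2.75-fold change, so a 2-fold rise was neither found nor excluded by it. Without *fogsk8* replicate 3 the change was 0.60, at an adjusted p of 0.0191 and under 2-fold. Without *fogsk8* replicate 1 the change was 1.05, past 2-fold but at an adjusted p of 0.0611. Over all alternatives the adjusted p of *gadd45aa* ran from 0.0191 to 0.15, and none brought it past both parts of the threshold.

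**Figure D2:**
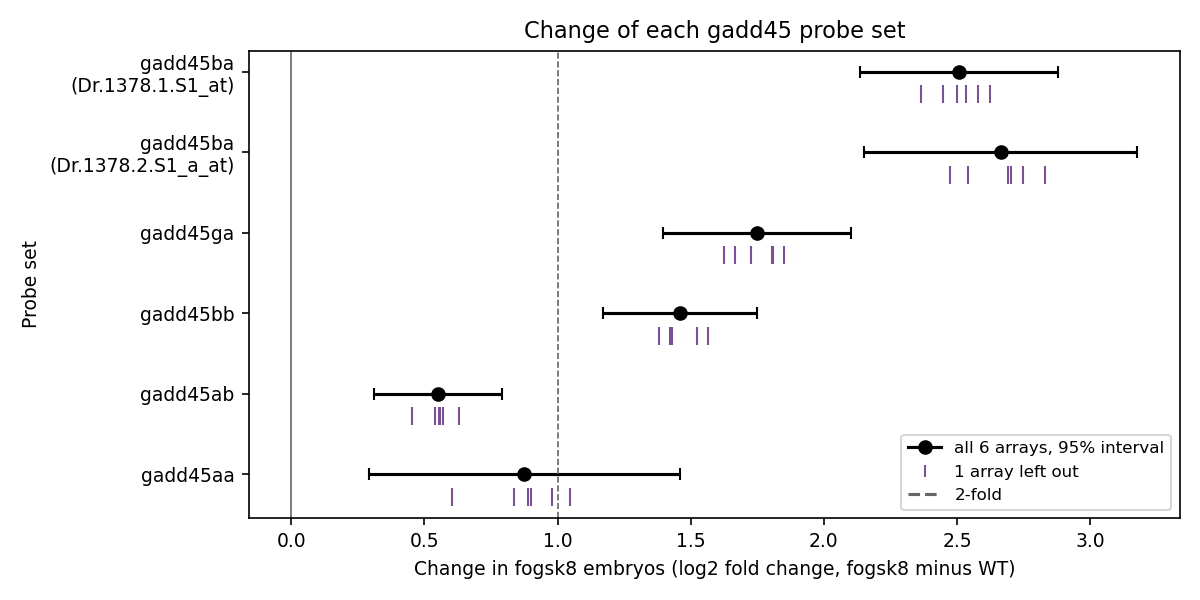
The change of each *gadd45* probe set (y axis) is plotted as the log2 fold change of *fogsk8* minus WT (x axis), as a point with its 95% interval from limma over all 6 arrays, and as ticks for the fits with 1 array left out. The intervals of *gadd45ba*, *gadd45ga* and *gadd45bb* lie to the right of the dashed 2-fold line, that of *gadd45ab* lies to its left, and that of *gadd45aa* (0.29 to 1.46) crosses it.

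The changes of the members were set against each other array by array. *gadd45ba* was read here from its S1_at probe set only, so its differences and their SEs hold for that probe set. Within each array the difference between 2 members was taken, and this difference was compared between the groups with an exact two-sided permutation test for all 10 pairs. With 3 arrays against 3 the smallest p it allows is 0.10, so no pair could pass 0.05. For 9 of the 10 pairs the groups did not overlap, which gave that smallest p (exact permutation p = 0.10, adjusted p = 0.11 over the 10 pairs). Of all pairs of the 8793 genes, 44% did not overlap in this way. The pair of *gadd45aa* and *gadd45bb* overlapped (exact permutation p = 0.20, adjusted p = 0.20).

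On its S1_at probe set, *gadd45ba* changed by 1.05 more than *gadd45bb* on the log2 scale (SE 0.078), and by 0.76 more than *gadd45ga* (SE 0.092). *gadd45ga* changed by 0.29 more than *gadd45bb* (SE 0.10). Against *gadd45ab*, the member with the smallest change, *gadd45bb* changed by 0.91 more (SE 0.12) and *gadd45ba* by 1.96 more (SE 0.18). The order of the changes was *gadd45ba*, *gadd45ga*, *gadd45bb*, *gadd45aa* and *gadd45ab*, and among neighbours in it only *gadd45bb* and *gadd45aa* overlapped between the groups. The WT values of *gadd45bb* and *gadd45aa* were not far above the floor. Whether this understates their changes, and so their place in the order, was not tested.

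**Figure D3:**
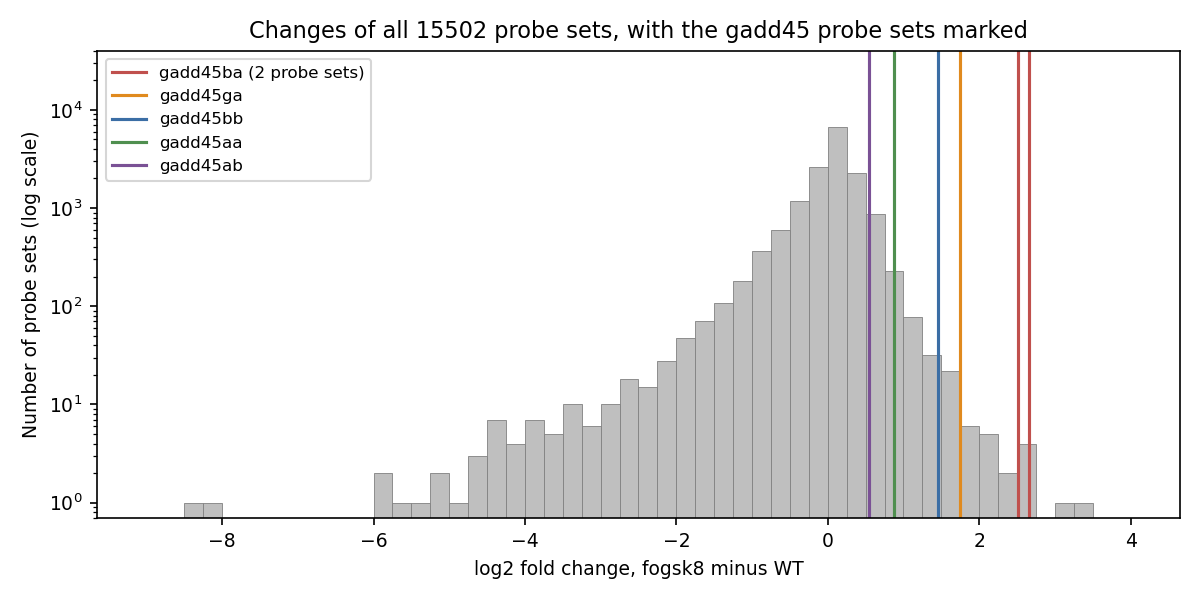
The number of probe sets (y axis, log scale) is plotted by log2 fold change of *fogsk8* minus WT (x axis) for all 15502 probe sets in bins of 0.25, with a coloured line at each *gadd45* probe set. The lines of *gadd45ba* stand near the right end, where 3.30 was the largest change of all probe sets, and that of *gadd45ab* stands at 0.55, inside the right flank.

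The lowest and highest array of each group was counted over the 6 probe sets. The same was not counted over all probe sets, so whether this order is particular to the *gadd45* genes was not tested. WT replicate 3 was the lowest WT array on 4 of the 6 probe sets, and *fogsk8* replicate 1 was the lowest mutant array on 5. *fogsk8* replicate 3 was the highest mutant array on 4. With replicate 3 of both groups left out, the log2 fold changes of *gadd45ba* were 2.35 and 2.87, that of *gadd45ga* 1.55 and that of *gadd45bb* 1.35, and each was still past the threshold (adjusted p = 0.00914 to 0.0206 by limma).

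The genes with the profile most like that of each member that rose were sought over the 6 arrays by Pearson's r, among 1483 other genes whose values spanned at least 1 on the log2 scale. *foxd5*, a forkhead transcription factor, was the closest to *gadd45ba* (r = 0.9972), followed by *gadd45bb* (0.9969), *gadd45ga* (0.9951), *fbxo46*, an F-box protein (0.9935), and *upf3b*, a factor of nonsense-mediated mRNA decay (0.9929). For *gadd45bb* the closest were *gadd45ba*, *foxd5* (0.9954), *si:ch211-14a17.11* (0.9947), *fbxo46* (0.9934) and *smo*, the Hedgehog signal transducer (0.9929). For *gadd45ga* they were *gtf2a1*, a general transcription factor (0.9980), *foxd5* (0.9977), *upf3b* (0.9956), *ctu1*, an enzyme of tRNA modification (0.9954), and *gadd45ba*. These values describe 6 arrays that fall in 2 groups, so any gene that differed cleanly between the groups has a high r. Of the 1483 genes, 102 had an r over 0.95 to *gadd45ba*, 87 to *gadd45bb* and 108 to *gadd45ga*.

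*foxd5* read 2.92, 2.69 and 1.96 in WT and 5.57, 5.87 and 6.02 in *fogsk8* embryos, with WT replicate 3 and *fogsk8* replicate 1 the lowest of their groups. The same arrays were the lowest on the S1_at probe set of *gadd45ba*, from which r was taken, but not on its S1_a_at probe set, where WT replicate 1 and *fogsk8* replicate 3 were the lowest. The log2 fold change of *foxd5*, 3.30, was the largest of all probe sets. Its WT values lay near or below the floor, so this fold and the order of its WT arrays are less certain.

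None of the measured genes beside the members on the chromosomes passed the threshold. In the RefSeq order of the assembly GRCz12tu, the nearest 2 protein-coding genes on each side of the 5 members make 20 genes, and 9 of them had a named probe set. Of these, 0 rose and 0 fell by limma, where 0.898% of all genes rose and 3.2% fell. With such shares, 0 of 9 genes says little about the neighbours. At an unadjusted p under 0.05, 1 was higher by limma and also by the methods' t-test. Of all genes, 21.7% were higher and 14.8% lower at an unadjusted p under 0.05 by limma at any fold, and 18.4% and 12.1% by the methods' t-test. Their log2 fold changes ran from −0.14 to 0.57. That of *nsun4*, an RNA methyltransferase gene near *gadd45aa*, was the largest (adjusted p = 0.0826). *larp6b*, next to *gadd45ba*, read 1.80 to 1.83 in WT and 1.82 to 1.88 in *fogsk8* embryos. *vmac*, on the same side, read 1.88 to 1.92 and 1.88 to 1.95. Both lay below the 10th percentile of the arrays, where a decrease or a small rise could hardly be seen. *gng7*, next to *gadd45bb*, read 5.49 to 5.68 in WT and 5.46 to 5.84 in *fogsk8* embryos. *creb3l3l*, next to *gadd45ga*, read 6.92 to 7.59 and 6.96 to 7.63, and *gng12a*, next to *gadd45aa*, read 7.13 to 7.39 and 7.09 to 7.29. These 3 neighbours overlapped between the groups. *gadd45gip1*, whose product binds Gadd45 proteins in mammals and is no member of the family, read 7.50 to 7.84 in WT and 7.62 to 7.95 in *fogsk8* embryos (log2 fold change 0.088, SE 0.13, adjusted p = 0.679).

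Genes that act with Gadd45 proteins or control them were drawn up in 5 lists, and each gene was read from its probe set of highest mean. Of the 52 genes measured, 0 rose and 1 fell, where 0.898% of all genes rose and 3.2% fell. The gene that fell, *lfng*, had been followed up by the study as lower on these same arrays, so it is not independent evidence. At an unadjusted p under 0.05 by limma, 9 were higher and 12 lower, where 21.7% and 14.8% of all genes were. By the methods' t-test, at an unadjusted p under 0.05 and 2-fold, 0 were higher and 1 lower, where 0.978% and 3.5% of all genes were. The unadjusted counts of the single lists are given at any fold and stand against the same shares of all genes.

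**Figure D4:**
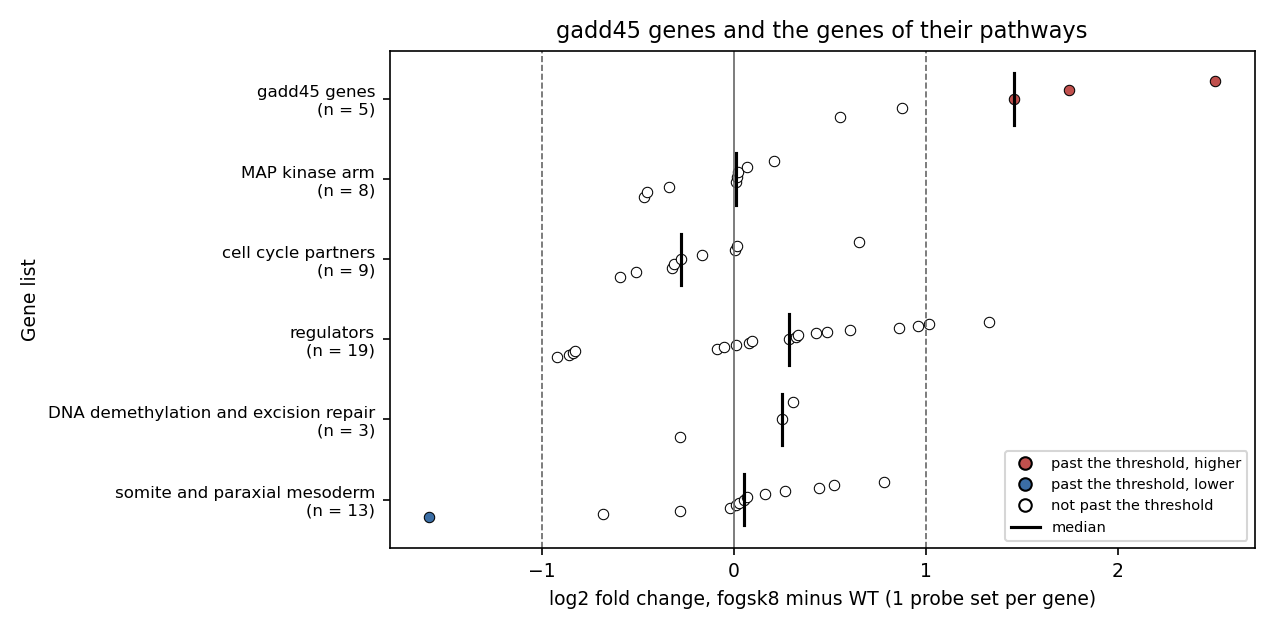
The log2 fold change of *fogsk8* minus WT (x axis) is plotted for each measured gene of the *gadd45* family and of the 5 lists (y axis), with filled points past the threshold, black bars at the medians and dashed lines at 2-fold. The median of the *gadd45* genes, 1.46, lies to the right of those of the lists, −0.27 to 0.29, while single regulators reach as far as 1.33 unfilled, and *lfng* is the filled point on the left.

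No measured transcript of the MAP kinase arm passed the threshold, which few of all genes passed (0.898% higher and 3.2% lower). *mapk11* was lower but under 2-fold (log2 fold change −0.47, SE 0.085, adjusted p = 0.0203). Of 8 genes of the MAP kinase arm, 0 passed by limma in either direction, with 0 higher and 2 lower at an unadjusted p under 0.05, 0 and 1 by the methods' t-test, and a median change of 0.014. *map3k4*, the kinase that mammalian GADD45 proteins activate, read 7.11 to 7.82 in WT and 7.52 to 7.70 in *fogsk8* embryos (log2 fold change 0.069, SE 0.19, adjusted p = 0.818). *mapk14a*, a p38 kinase, had a log2 fold change of 0.012 (SE 0.099, adjusted p = 0.941). 2 genes of this list, *map2k4a* and *mapk8b*, lay at the floor in both groups, where a decrease could not be seen.

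Among the cell cycle partners, 0 of 9 genes passed by limma, with 1 higher and 4 lower at an unadjusted p under 0.05 by limma and by the methods' t-test, and the median was −0.27. *pcna*, the sliding clamp of DNA replication, read 12.83 to 12.92 in WT and 12.23 to 12.34 in *fogsk8* embryos. Its groups did not overlap, and its log2 fold change of −0.59 (SE 0.059, adjusted p = 0.00399) was under 2-fold. *cdk1* and *ccnb1*, the kinase and the cyclin of entry into mitosis, had log2 fold changes of −0.31 (adjusted p = 0.0599) and −0.27 (adjusted p = 0.0774). *ccnb2*, another B-type cyclin, read 5.56 to 6.13 in WT and 6.37 to 6.75 in *fogsk8* embryos, with no overlap and the opposite sign (log2 fold change 0.65, SE 0.18, adjusted p = 0.0649). The probe sets of *ccnd1*, the cyclin of the G1 phase, disagreed, with −0.51 (adjusted p = 0.0787) on the brighter and −1.10 (adjusted p = 0.000986) on the other, which fell. Those of *cdc25b* disagreed as well, with 0.015 (adjusted p = 0.933) on the brightest. Its others stood at −0.55 (adjusted p = 0.0225) and −0.48 (adjusted p = 0.0177), both under 2-fold. The gene for p21, *cdkn1a*, was not analysed here.

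Of 19 genes that control *gadd45* genes or are induced with them, 0 passed by limma, with 6 higher and 3 lower at an unadjusted p under 0.05, 4 and 3 by the methods' t-test, and the median was 0.29. The *atf4* genes, which encode the factor of the integrated stress response that induces *GADD45A* in mammals, were both lower. *atf4a* read 9.44 to 9.54 in WT and 8.64 to 8.68 in *fogsk8* embryos, with no overlap (log2 fold change −0.84, SE 0.054, adjusted p = 0.0014), and *atf4b* had a log2 fold change of −0.92 (SE 0.17, adjusted p = 0.0212). Both changes were short of 2-fold. *atf4b* passed without *fogsk8* replicate 3 (log2 fold change −1.04, adjusted p = 0.0347). *myca* was also lower but short of 2-fold (log2 fold change −0.86, SE 0.13, adjusted p = 0.013). *foxo3a* and *foxo3b*, genes for FOXO factors, had log2 fold changes of −0.085 (adjusted p = 0.574) and 0.33 (adjusted p = 0.352). *mdm2*, a ubiquitin ligase gene induced by DNA damage, had a log2 fold change of 0.33 (SE 0.14, adjusted p = 0.183).

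The *jun* genes, encode AP-1 factors downstream of JNK, and all of those measured had changes above 0. *jun* read 7.87 to 7.92 in WT and 8.63 to 8.86 in *fogsk8* embryos on its brighter probe set (log2 fold change 0.86, SE 0.076, adjusted p = 0.0029, under 2-fold). On its other probe set it rose, by 1.12 (SE 0.14, adjusted p = 0.00805). *junba* read 5.53 to 5.80 in WT and 7.56, 7.90 and 5.40 in *fogsk8* replicates 1 to 3, so that the third mutant array lay below the WT arrays (log2 fold change 1.33, SE 0.66, adjusted p = 0.235). On that array the *gadd45b* and *gadd45g* probe sets read above every WT array. It was still the lowest mutant array on the S1_a_at probe set of *gadd45ba*, at 5.66. *junbb* read 7.53 to 7.65 in WT and 8.17 to 8.89 in *fogsk8* embryos (log2 fold change 0.96, SE 0.18, adjusted p = 0.022, under 2-fold). Without *fogsk8* replicate 3, *junba* and *junbb* passed, at 2.11 and 1.14 (adjusted p = 0.00787 and 0.0145). *nfkbiab*, an inhibitor and target of NF-kappaB, had a log2 fold change of 0.43 (SE 0.061, adjusted p = 0.0102). *atf3*, a stress-induced factor, had a log2 fold change of 1.02 (SE 0.32, adjusted p = 0.0841), and it passed with dim probe sets left out before the fit (adjusted p = 0.0359) and without replicate 3 of both groups (log2 fold change 1.46, adjusted p = 0.0461).

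Of the DNA demethylation and excision repair genes only 3 were measured, and 0 passed by limma, with 1 higher and 0 lower at an unadjusted p under 0.05 by limma and by the methods' t-test. *ercc3*, a helicase of excision repair, had a log2 fold change of 0.25 (SE 0.055, adjusted p = 0.0328) and *xpa*, a damage-binding protein, of 0.31 (SE 0.13, adjusted p = 0.18). *xpc*, which recognises DNA damage, had a log2 fold change of −0.28 (SE 0.20, adjusted p = 0.406) on its brighter probe set and 0.23 (adjusted p = 0.156) on the other.

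In the list of somite and paraxial mesoderm genes, 1 of 13 fell and 0 rose by limma, with a median of 0.052. At an unadjusted p under 0.05, 1 was higher and 3 lower by limma, and 1 and 1 by the methods' t-test. *lfng*, a glycosyltransferase that modulates Notch, fell, from 10.70 to 10.87 in WT to 8.88 to 9.53 in *fogsk8* embryos (log2 fold change −1.59, SE 0.17, adjusted p = 0.00462). *dld*, a Notch ligand, had a log2 fold change of −0.28 (SE 0.11, adjusted p = 0.142). The probe sets of *dlc*, another Notch ligand, disagreed. Its brightest had a log2 fold change of −0.68 (adjusted p = 0.0857), and another fell by 2.14 on the log2 scale (adjusted p = 0.002). *msgn1*, a factor of the presomitic mesoderm, read 6.36, 6.09 and 4.36 in WT and 6.82, 6.30 and 5.26 in *fogsk8* replicates 1 to 3, with replicate 3 the lowest in both groups (log2 fold change 0.52, SE 0.65, adjusted p = 0.612). *tbx16*, a T-box factor of the paraxial mesoderm, read 2.65 to 3.14 in WT and 3.42 to 3.91 in *fogsk8* embryos, with no overlap but at dim values (log2 fold change 0.78, SE 0.18, adjusted p = 0.0367, under 2-fold), and its other probe set had a log2 fold change of 0.43 (adjusted p = 0.0521). *myod1*, the muscle determination factor, had a log2 fold change of 0.44 (SE 0.33, adjusted p = 0.409). 7 of the 13 genes had a mean log2 value under 4 in both groups.

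Markers of tissues moved in the same embryos. Of 31 marker genes for neurons, muscle, skin, blood, endothelium, pronephros, paraxial mesoderm, lens, pigment cells and notochord, 16 fell and 0 rose by limma, where 3.2% of all genes fell and 0.898% rose. At an unadjusted p under 0.05 by limma, 2 were higher and 18 lower, where 21.7% and 14.8% of all genes were. By the methods' t-test at an unadjusted p under 0.05 and 2-fold, 0 were higher and 16 lower, against the 0.978% and 3.5% above. Some of these markers, such as *gch2* and *atp1a1a.4*, had been reported as lower by the study from these same arrays. Their part in these counts is not independent evidence. By list, 4 of 4 blood markers fell, 3 of 4 for pigment cells, 2 of 2 for endothelium, 2 of 3 for muscle and 1 of 2 for lens. For neurons 1 of 3 fell, and for notochord 1 of 3. The lens and pigment markers that did not fall, *cryaa* and *tyr*, read 2.41 to 2.53 and 1.96 to 1.99 in WT. These values lay near or below the floor, where a decrease could hardly be seen. The median log2 fold change was −4.09 for pigment cells, −2.16 for blood, −1.54 for muscle and −1.46 for endothelium. In whole embryos, fewer cells of a type and less RNA per cell cannot be told apart. The 4 pronephros markers summed to 542 to 669 in WT and 254 to 285 in *fogsk8* embryos, on the linear scale of the array values, and 2 of them fell. *atp1a1a.4* and *cdh17* were the largest terms of this sum, which therefore says little of *pax2a* (log2 fold change −0.43, adjusted p = 0.552). The 4 markers of paraxial mesoderm, of which *her1*, *tbx6* and *tbx16* had a mean log2 value under 4 in both groups, summed to 38.5 to 103 and 61.9 to 141, and 0 passed. *msgn1* was the largest term on each array, so this sum mostly follows that gene and its low replicate 3. The 2 skin markers measured, *krt4* and *krt5*, summed to 19782 to 20721 and 19550 to 23476, with neither past the threshold. The part of tissue composition in the *gadd45* changes was not tested.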

How the data were processed

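The 6 RNA samples were each hybridised to their own Affymetrix array. GC-RMA was run by the authors, and its log2 values were used as deposited. It models background from probe GC content, normalizes the arrays together and summarises each probe set. The sources used here name no version of it, and probe-level files were not used. Groups and replicate numbers came from the sample titles. The study calls the replicates independent. Where they were not separate clutches, p-values measure only the spread between these samples.

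The file holds 15617 probe sets. The 15502 that are not among its 115 controls were fitted with limma 3.58.1 in R 4.3.3 (lmFit, eBayes, no covariate), with p-values adjusted by Benjamini-Hochberg over all of them. Probe sets were named from the platform table: 10795 had 1 symbol, 135 several and 4572 none. RefSeq (GRCz12tu) held the Entrez ID of 10711 and updated 1 symbol. Names only, and the order of neighbouring genes, were taken from it. For the 8793 genes, the probe set of highest mean stood for the gene, and all probe sets of the members are given. Besides the members, the named genes are *supt5h*, up to 4 members of each list past the threshold, with 2 more of the highest mean where fewer passed, and the 5 genes most alike to each member that rose. Other list genes, *gadd45gip1* and the neighbours were named after their values were seen. The members and lists were chosen with earlier results of these data known.

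As alternatives, each array was left out in turn, as was replicate 3 of both groups. The fit was also run with the replicate number as a block, with a trend of variance on mean level, on values shifted to equal array medians, on values quantile normalized once more, and with probe sets under a mean log2 value of 4 in both groups removed. Calls were also made at any fold, and with the methods' t-test (Student's test, run on the log2 values), unadjusted or adjusted. *gadd45ba* was read from its other probe set as well. Samples with the same replicate number deviated together from their group means (r = 0.12, 0.29 and 0.39 over probe sets), all over the bound of 0.1 set for pairing. Other pairs reached 0.18 (WT replicate 1 with *fogsk8* replicate 2) and 0.15 (WT replicate 2 with *fogsk8* replicate 1). Python 3.11.15, pandas 2.3.3, scipy 1.17.1 and matplotlib 3.10.9 were used for tables, permutation tests and figures.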

Additional observations from a re-analysis of the deposited data

How the results depend on the processing

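The changes of all 6 *gadd45* probe sets kept their direction under every alternative run. The 4 that rose stayed past the threshold in each, with log2 fold changes of 2.35 to 2.63 and 2.47 to 2.87 for *gadd45ba*, 1.55 to 1.85 for *gadd45ga* and 1.35 to 1.56 for *gadd45bb*, and adjusted p = 0.000121 to 0.0228. With no minimum fold, *gadd45ab* (log2 fold change 0.55) was called too, and the counts of probe sets and genes were 5 and 4. The adjusted p of *gadd45ab* was 0.00993 to 0.0646 and that of *gadd45aa* 0.0191 to 0.15 over all alternatives. With the replicate block, 4 probe sets and 3 genes passed, as without it (adjusted p = 0.055 for *gadd45aa*), and it changed no call among the *gadd45* probe sets, *lfng* and the counts of the 5 lists. It was not run on the markers or the neighbours. On the S1_at probe set, the change of *gadd45ba* beyond that of *gadd45bb* was 0.98 to 1.11 with arrays left out. It was 1.04 after quantile normalization and 1.05 with the replicate block, where the exact paired permutation p = 0.25 is the smallest that 3 pairs allow. Centring cancels in it, and the t-test, the minimum fold, the variance trend and the removal of dim probe sets were not run on it. With no minimum fold, 3 of the regulators were higher and 3 lower, 1 MAP kinase gene and 1 cell cycle partner were lower, and 1 excision repair gene and 1 somite gene were higher. Of the regulators, 1 was higher with dim probe sets left out, 3 without replicate 3 of both groups, 0 to 2 with 1 array left out, and 0 to 1 lower with 1 array left out.

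Changes under 2-fold were left uncalled by the threshold itself. Cross-binding between *gadd45* paralogs could not be examined without probe sequences.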
